A study of Mus musculus with 19 samples.

Results

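The genes described here are 45 members of mitochondrial and peroxisomal fatty acid oxidation and of acyl-CoA metabolism, taken by symbol from a kidney table of 40413 genes. They were measured in polyadenylated RNA from kidney tissue of adult mice, 1 library per mouse. The mice were BPH/2J, a hypertensive strain, or BPN/3J, its normotensive counterpart, and each strain received Cmpd17b or vehicle daily for 28 days. Cmpd17b, a small molecule that activates formylpeptide receptors, was given intraperitoneally at 50 mg/kg/day. The groups used were BPH/2J with Cmpd17b (n = 4), BPH/2J with vehicle (n = 5), BPN/3J with Cmpd17b (n = 5) and BPN/3J with vehicle (n = 4). The mice carried no engineered allele in the labels, and sex was not stated there. BPH/2J and BPN/3J differ in genetic background as well as in blood pressure, and these cannot be told apart in any comparison of the strains. All 45 members passed the filter on low counts, as did 16421 genes in all, and the lowest count of any member in any library was 82.

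Fatty acids are activated to acyl-CoA by synthetases, carried into mitochondria by the carnitine shuttle and shortened there by repeated rounds of dehydrogenation, hydration, dehydrogenation and thiolysis. Peroxisomes oxidise very long, branched and bile acid side chains with their own set of enzymes, and thioesterases return acyl-CoA to free fatty acid. Proximal tubule cells rely heavily on this pathway for ATP, and many of its genes are targets of the nuclear receptor PPAR alpha.

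Total counts in the 18 libraries ran from 21400119 to 40998662. Another BPH/2J mouse given Cmpd17b, replicate 1 by its labels, was left out because it had the profile of heart muscle: Myh6 was at 14200 CPM (counts scaled to the library total) there, and at most 33.9 CPM in the 18 others. Within it 18 of the 45 members lay above all other libraries and 21 below all of them, with Pdk4 at 593 CPM and Acsm2 at 12.1 CPM. The summed level of 12 heart muscle markers was 134.5 to 192 CPM in the 4 remaining BPH/2J Cmpd17b mice, 4.93 to 11.9 CPM in BPH/2J vehicle mice, 5.81 to 12.1 CPM in BPN/3J Cmpd17b mice and 5.80 to 11.4 CPM in BPN/3J vehicle mice. Of those markers, Nppa was at 0 in 10 of the 18 libraries. The summed level of 14 proximal tubule markers was 11973 to 13504 CPM, 8441 to 13208 CPM, 12784 to 13445 CPM and 10963 to 13473 CPM in the same groups, and none of those markers passed the test between strains in either arm. Under vehicle 11 of the 14 had a log2 fold change of BPH/2J over BPN/3J below 0, with a median of -0.29 and 6 at an unadjusted edgeR p below 0.05, and under Cmpd17b 10 of the 14, with a median of -0.21. Markers of other cell types did pass. Under vehicle 5 of 8 stroma and endothelium markers and 4 of 6 podocyte markers were higher in BPH/2J, with medians over those lists of 1.29 and 0.82 on the log2 scale, as was 1 marker each of collecting duct, red blood cells, liver and heart muscle, and 1 heart muscle marker was lower. Under Cmpd17b 11 of 12 heart muscle and 3 of 5 red blood cell markers were higher, as was 1 marker each of podocytes and collecting duct, and 1 of 7 leukocyte markers was lower. In both arms the collecting duct marker called was Slc4a1, which is also on the red blood cell list. This gene is thus counted in both lists, and under vehicle it was the only call of either. No marker of fat cells or of the thick ascending limb and distal convoluted tubule passed in either arm. Transcripts of the mitochondrial genome made up 16.6% to 26.6% and 16.0% to 21.7% of counts in BPH/2J mice given Cmpd17b and vehicle, against 12.8% to 14.97% and 13.2% to 16.3% in BPN/3J mice. Among the fitted libraries BPH/2J Cmpd17b replicate 5 stood apart, with 32 of the 45 members below the median of the other mice of its group, and calls that change without it are given beside the gene. The part of these markers and of the mitochondrial share in the strain differences below was not tested. Fewer cells of a type and less RNA per cell cannot be told apart in these bulk samples.

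**Figure D1:**
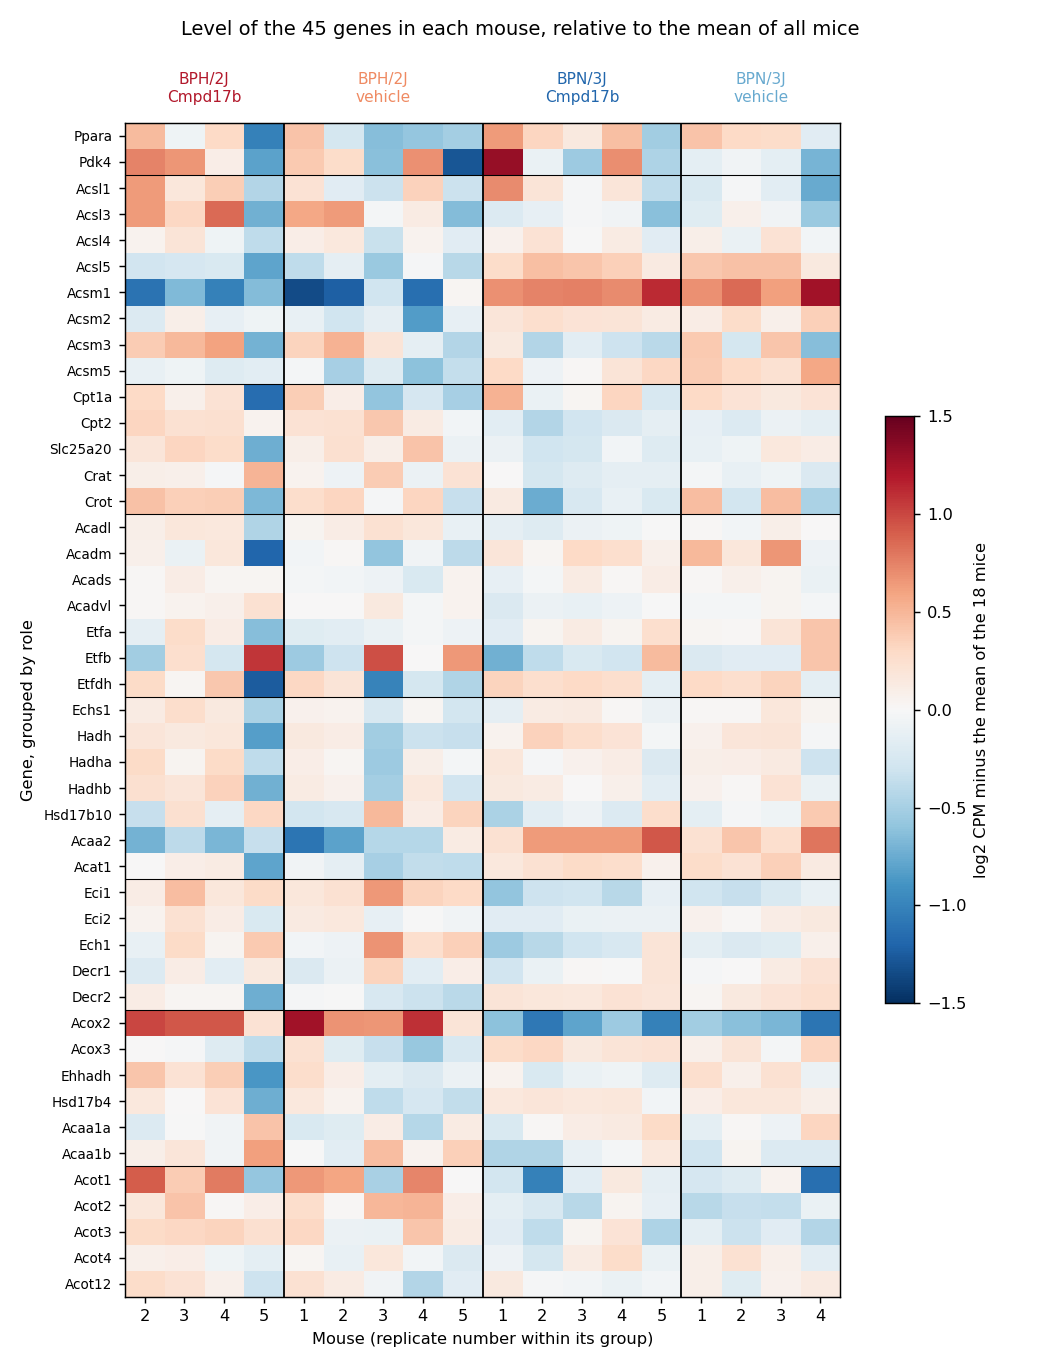
Level of each of the 45 genes (rows, grouped by role) in each of 18 mice (columns), as log2 CPM minus the mean over all mice, with red above and blue below that mean. Acox2 is red and Acsm1 and Acaa2 are mostly blue across the BPH/2J mice, with the opposite colours in BPN/3J mice, and BPH/2J Cmpd17b replicate 5 is blue in many rows.

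Together the 45 members took 1.03% to 1.75% of all counts in a library. Their summed level was 12745 to 15959 CPM in BPH/2J Cmpd17b mice, 11566 to 14484 CPM in BPH/2J vehicle mice, 15707 to 16058 CPM in BPN/3J Cmpd17b mice and 16233 to 16830 CPM in BPN/3J vehicle mice. Acsm2 made up much of that sum. Without it the ranges were 7408 to 10020 CPM and 8439 to 9323 CPM in the BPH/2J groups, and 9051 to 9661 CPM and 9596 to 10569 CPM in the BPN/3J groups. With or without Acsm2, the sum of every BPH/2J vehicle mouse was below that of every BPN/3J vehicle mouse. Under Cmpd17b the strains overlapped in both sums. On the scale of level per kilobase of transcript, Acsm2 was highest, with a median of 2817.5 CPM per kb over the 18 mice. Etfb followed at 443 and Acadm at 417 CPM per kb, whereas Pdk4 was lowest at 2.35 CPM per kb. The coefficient of variation of a level within a group had a median of 14.8% over the members and 20.01% over all tested genes. It was smallest for Acadvl, at 4.81%, and largest for Pdk4 and Etfb, at 41.7% and 38.3%.

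Between strains a few members differed strongly, in opposite directions, and most did not pass the test. Under vehicle, 4 members were higher in BPH/2J (Acox2, Eci1, Acot2 and Cpt2) and 6 were lower (Acsm1, Acsm5, Acsl5, Acaa2, Acsm2 and Acat1) by edgeR's quasi-likelihood test, at a Benjamini-Hochberg adjusted p below 0.05. Of all 16421 genes tested, 10.8% passed in this comparison, 5.82% higher and 4.94% lower. Under Cmpd17b, 3 members were higher (Acox2, Eci1 and Cpt2) and 3 lower (Acsm1, Acaa2 and Acsl5), against 10.4% of all tested genes, 5.71% higher and 4.65% lower. The share of members called was thus above the background under vehicle and near it under Cmpd17b. Members were chosen with earlier results of these data known, so these shares cannot serve as a test of the pathway. The median log2 fold change of BPH/2J over BPN/3J was -0.07 over the members and 0.04 over all tested genes under vehicle, and 0.03 and 0.01 under Cmpd17b. Under vehicle, all values of 5 members lay above and those of 8 lay below the BPN/3J range, against 6.9% and 6.69% of all tested genes, 13.6% together. Under Cmpd17b, 5 members lay above and 6 below, against 6.38% and 6.37% of all tested genes, 12.8% together. A p-value that misses the threshold does not show that levels did not differ.

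**Figure D2:**
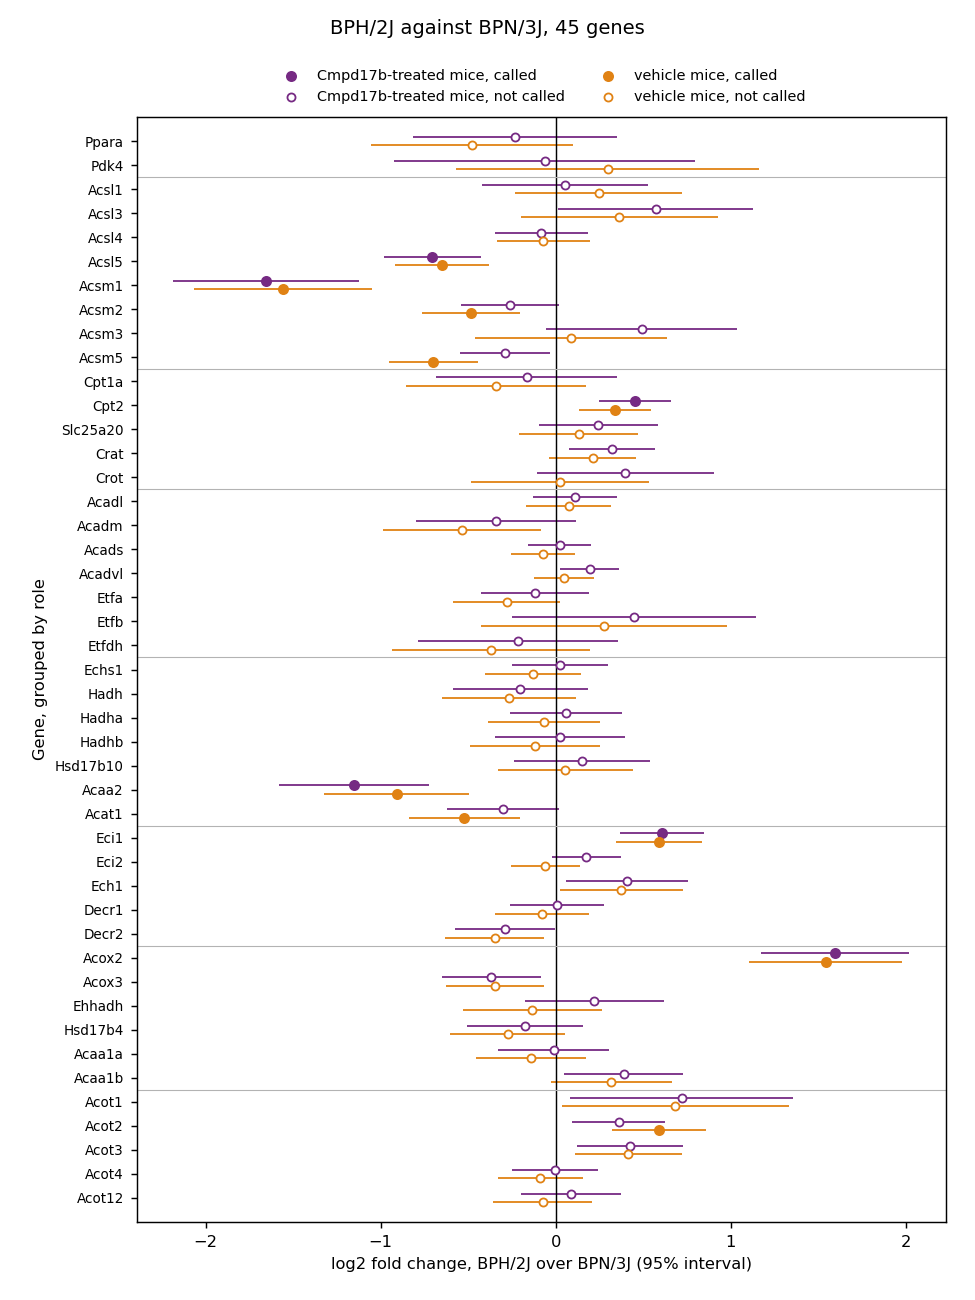
Log2 fold change of BPH/2J over BPN/3J for each of the 45 genes, with 95% intervals, in Cmpd17b-treated mice (purple) and vehicle mice (orange); filled points passed the test. Acox2 lies farthest to the right in both arms and Acsm1 farthest to the left, while most intervals include 0.

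Among the 8 acyl-CoA synthetases, none was higher in BPH/2J and 4 were lower under vehicle, and 2 were lower under Cmpd17b. The Acsm genes encode mitochondrial synthetases that act on medium-chain and aromatic acids, and Acsm5, Acsm2, Acsm1 and Acsm3 lie near each other in the RefSeq gene order. They are similar in sequence, so counting could have split reads among them and their levels are uncertain to that extent. Acsm1, which had the largest strain difference of these, is shown with the 250 bases before its RefSeq start in build GRCm38.p6, chr7:119617562-119617811 on the plus strand. Capitals mark the reverse complement of AGGTCA, the core hexamer that nuclear receptors of the PPAR and RXR type recognise.
Acsm1 promoter: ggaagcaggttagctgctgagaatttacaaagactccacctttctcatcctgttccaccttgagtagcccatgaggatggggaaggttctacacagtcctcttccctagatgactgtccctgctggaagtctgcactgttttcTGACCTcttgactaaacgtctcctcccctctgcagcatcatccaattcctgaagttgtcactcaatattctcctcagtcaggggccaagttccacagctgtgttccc
Acsm1 was at 115, 125, 238, 134 and 299 CPM in BPH/2J vehicle mice, against 469, 526, 447 and 701 CPM in BPN/3J vehicle mice. Under Cmpd17b it was at 135, 184, 144 and 186 CPM in BPH/2J mice, against 468, 488, 493, 479 and 632 CPM in BPN/3J mice. Every BPH/2J mouse lay below every BPN/3J mouse, and among BPH/2J vehicle mice replicates 3 and 5 were the highest. The log2 fold change was -1.56 under vehicle (SE 0.24, edgeR adjusted p 0.000261) and -1.66 under Cmpd17b (SE 0.25, edgeR adjusted p 0.000183).

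Acsm5 was at 118, 86.0, 106, 79.1 and 94.8 CPM in BPH/2J vehicle mice, against 157, 149, 142 and 181 CPM in BPN/3J vehicle mice. Those groups were apart, with a log2 fold change of -0.70 (SE 0.12, edgeR adjusted p 0.000714). Under Cmpd17b it was at 112, 116, 106 and 108 CPM in BPH/2J mice, against 149.6, 115, 122, 139 and 150.0 CPM in BPN/3J mice, where 1 BPN/3J mouse reached into the BPH/2J range and the test was not passed (log2 fold change -0.29, edgeR adjusted p 0.149). Acsm2 was at 5161, 4546, 5089, 3128 and 5130.1 CPM in BPH/2J vehicle mice, against 6023, 6761, 5889 and 7119 CPM in BPN/3J vehicle mice. BPH/2J replicate 4, at 3128 CPM, was the lowest. That mouse also had the lowest summed proximal tubule markers of its group, at 8441 CPM against 10655 to 13208 CPM in the other 4, and the highest summed fat cell markers, at 262 CPM against 37.1 to 76.8 CPM, and their part in its levels was not tested. The log2 fold change was -0.48 (SE 0.13, edgeR adjusted p 0.0238). That call was lost without BPN/3J vehicle replicate 2 or 4. Under Cmpd17b its groups were also apart, at 4837, 5939, 5139 and 5336 CPM in BPH/2J mice against 6309.9, 6656, 6421, 6397 and 6072 CPM in BPN/3J mice, but the edgeR adjusted p was 0.244 for a log2 fold change of -0.26. The neighbour Acsm3 overlapped between strains in both arms. It was at 642, 731, 584, 463 and 376 CPM in BPH/2J vehicle mice, against 671, 426, 682 and 327 CPM in BPN/3J vehicle mice. Among treated mice it was at 665, 717, 778 and 312 CPM in BPH/2J, against 565, 376, 459, 413 and 386 CPM in BPN/3J, with 3 BPH/2J mice above and 1 below all BPN/3J mice. Its log2 fold change was 0.09 under vehicle and 0.49 under Cmpd17b, with edgeR adjusted p of 0.864 and 0.262.

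Acsl5, one of the long-chain synthetases, was at 34.8, 41.1, 30.8, 44.8 and 33.7 CPM in BPH/2J vehicle mice, against 59.96, 61.2, 61.3 and 50.0 CPM in BPN/3J vehicle mice. With Cmpd17b the values were 37.0, 37.9, 38.5 and 26.1 CPM in BPH/2J mice, against 54.7, 62.01, 60.1, 57.7 and 49.8 CPM in BPN/3J mice. Every BPH/2J mouse was below every BPN/3J mouse, and replicate 5 was the lowest of the BPH/2J Cmpd17b mice. Its log2 fold change was -0.65 (SE 0.13, edgeR adjusted p 0.00248) under vehicle and -0.70 (SE 0.13, edgeR adjusted p 0.00129) under Cmpd17b. The other long-chain synthetases, Acsl1, Acsl3 and Acsl4, had strain log2 fold changes of -0.08 to 0.57 over both arms, and none passed the test. Without BPH/2J Cmpd17b replicate 5, Acsl3 was called higher under Cmpd17b.

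Of the 5 carnitine shuttle genes, 1 was called. Cpt2, the inner-membrane carnitine palmitoyltransferase that re-forms acyl-CoA inside the mitochondrion, was at 138, 139, 157, 129 and 115 CPM in BPH/2J vehicle mice, against 108, 102, 111 and 107 CPM in BPN/3J vehicle mice. With Cmpd17b it was at 147, 139, 139 and 122 CPM in BPH/2J mice, against 106, 87.2, 97.2, 102 and 108 CPM in BPN/3J mice. The strains did not overlap in either arm, but the gap was narrow under vehicle. This gave a log2 fold change of 0.34 (SE 0.10, edgeR adjusted p 0.0319) under vehicle and 0.45 (SE 0.10, edgeR adjusted p 0.0041) under Cmpd17b. The vehicle call was lost on leaving out any of 7 single libraries, all 4 BPN/3J vehicle mice among them, along with BPH/2J vehicle replicates 2 and 3 and BPH/2J Cmpd17b replicate 4. Cpt1a, the outer-membrane step that malonyl-CoA inhibits, was at 394, 325, 202, 256 and 216 CPM in BPH/2J vehicle mice, against 375, 350.2, 335 and 351 CPM in BPN/3J vehicle mice. The BPH/2J mice were far more spread and reached both above and below the BPN/3J mice, and the log2 fold change was -0.34 (SE 0.24, edgeR adjusted p 0.426). Among treated mice Cpt1a was at 375, 321, 354 and 138 CPM in BPH/2J, against 436, 283, 309.7, 380.0 and 258 CPM in BPN/3J, overlapping except for the low BPH/2J replicate 5. For Crat and Crot, which form acetyl- and octanoyl-carnitine, and Slc25a20, the carnitine-acylcarnitine carrier, strain log2 fold changes ran from 0.02 to 0.40 over both arms and none passed. Slc25a20 was called higher under Cmpd17b without BPH/2J Cmpd17b replicate 5.

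None of the 7 acyl-CoA dehydrogenase and electron transfer genes passed in either arm. Acadm, the medium-chain dehydrogenase, was at 800.0, 832, 546, 790.3 and 625 CPM in BPH/2J vehicle mice, against 1156, 928, 1297 and 780.0 CPM in BPN/3J vehicle mice. Only BPN/3J replicate 4 reached into the BPH/2J range, and the log2 fold change was -0.53 (SE 0.22, edgeR adjusted p 0.131). In treated mice Acadm was at 871, 769, 929 and 361 CPM in BPH/2J mice, against 936, 839, 1016, 983 and 867 CPM in BPN/3J mice, with replicate 5 far below the other BPH/2J mice. Acadm was called lower under vehicle when that treated mouse was left out of the fit. Acadvl and Acads, the very long-chain and short-chain dehydrogenases, were the steadiest members within groups. Acadvl averaged 303 ± 14.1 CPM in BPH/2J and 293 ± 7.68 CPM in BPN/3J vehicle mice (SD, n = 5 and 4), with a log2 fold change of 0.05 (95% interval -0.12 to 0.22). Under Cmpd17b every BPH/2J mouse lay above every BPN/3J mouse for Acadvl. The log2 fold change there was 0.19 (95% interval 0.02 to 0.36, edgeR adjusted p 0.149), and DESeq2 called it higher. Etfb, a subunit of the flavoprotein that accepts the electrons, was instead among the members that varied most within groups. It was at 309, 364, 881, 454 and 707 CPM in BPH/2J vehicle mice, against 391, 401, 402 and 601 CPM in BPN/3J vehicle mice. Etfb thus varied within the BPH/2J group by more than the groups differed.

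Of the 7 mitochondrial hydration, dehydrogenation and thiolysis genes, the thiolases Acaa2 and Acat1 were lower in BPH/2J under vehicle. Acaa2 encodes the 3-ketoacyl-CoA thiolase of the last step. It was at 57.2, 69.9, 91.01, 90.7 and 133 CPM in BPH/2J vehicle mice, against 143, 163, 146 and 213 CPM in BPN/3J vehicle mice. Given Cmpd17b, the levels were 74.7, 93.4, 76.1 and 96.4 CPM in BPH/2J mice, against 143, 189.7, 190.0, 189.9 and 233 CPM in BPN/3J mice. The strains were apart in both arms, with only BPH/2J vehicle replicate 5 coming close to the BPN/3J range. Acaa2 thus had a log2 fold change of -0.91 (SE 0.20, edgeR adjusted p 0.00516) under vehicle and -1.15 (SE 0.20, edgeR adjusted p 0.000842) under Cmpd17b. The library with the heart muscle profile held Acaa2 at 647 CPM, above all 18 others. Acat1, the acetoacetyl-CoA thiolase that also serves ketone bodies and isoleucine breakdown, was at 813, 768, 595, 653 and 647 CPM in BPH/2J vehicle mice, against 1017, 978, 1076 and 921 CPM in BPN/3J vehicle mice. The strains were apart, and the log2 fold change was -0.52 (SE 0.15, edgeR adjusted p 0.0319). That call was lost without BPH/2J vehicle replicate 3, 4 or 5 and without BPN/3J vehicle replicate 1, 2 or 3. Under Cmpd17b Acat1 was at 846, 899, 914 and 485 CPM in BPH/2J mice, against 941, 986, 1022, 1012 and 882 CPM in BPN/3J mice, and the test was not passed (log2 fold change -0.30, edgeR adjusted p 0.239).

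Hadha and Hadhb encode the subunits of the mitochondrial trifunctional protein, which joins the hydratase, dehydrogenase and thiolase steps for long chains. The genes are adjacent and point away from each other, with 272 bases between their RefSeq starts. The 250 bases before the Hadhb start, all of them within that shared space, are chr5:30155003-30155252 on the plus strand in GRCm38.p6. They hold no AGGTCA on either strand.
Hadhb promoter: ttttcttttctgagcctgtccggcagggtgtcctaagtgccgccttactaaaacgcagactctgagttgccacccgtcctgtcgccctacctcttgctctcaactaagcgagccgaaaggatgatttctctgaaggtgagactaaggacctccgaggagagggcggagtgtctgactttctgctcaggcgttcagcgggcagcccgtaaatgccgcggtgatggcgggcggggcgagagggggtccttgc
Hadha was at 149.9, 143, 95.9, 149 and 137 CPM in BPH/2J vehicle mice, against 148, 151, 154 and 113 CPM in BPN/3J vehicle mice. Hadhb was at 196, 188, 126, 201 and 148 CPM in BPH/2J vehicle mice, against 188, 181, 209 and 167 CPM in BPN/3J vehicle mice. The strains overlapped for both, and the lowest mouse of each group was the same for the pair. Among treated mice Hadha was at 171, 144, 171 and 107 CPM in BPH/2J, against 158, 138, 146, 151 and 120.2 CPM in BPN/3J, again with overlap. Strain log2 fold changes of the pair ran from -0.12 to 0.06 over both arms, and none passed. Echs1, Hadh and Hsd17b10, the separate hydratase and dehydrogenases, ran from -0.27 to 0.15 over both arms, also without a call.

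Eci1 was the 1 called gene of the 5 auxiliary isomerases and reductases, which prepare unsaturated chains for oxidation. Eci1, a mitochondrial enoyl-CoA isomerase, was at 99.6, 103, 139, 111 and 108 CPM in BPH/2J vehicle mice, against 71.8, 69.3, 75.2 and 81.9 CPM in BPN/3J vehicle mice. In the treated arm Eci1 was at 95.6, 122, 99.4 and 108 CPM in BPH/2J mice, against 58.8, 71.1, 71.9, 66.1 and 81.2 CPM in BPN/3J mice. Every BPH/2J mouse lay above every BPN/3J mouse. The log2 fold change was 0.59 (SE 0.12, edgeR adjusted p 0.00233) under vehicle and 0.61 (SE 0.11, edgeR adjusted p 0.00149) under Cmpd17b. Its relative Eci2 overlapped between the strains in both arms, with log2 fold changes of -0.06 and 0.18 under vehicle and Cmpd17b. Decr2, the peroxisomal dienoyl-CoA reductase, lay below the BPN/3J range in both arms without passing the test. It was at 40.5, 40.8, 34.7, 32.6 and 31.0 CPM in BPH/2J vehicle mice, against 41.7, 45.4, 47.1 and 48.7 CPM in BPN/3J vehicle mice (log2 fold change -0.35, edgeR adjusted p 0.116), and was called lower under vehicle without BPH/2J Cmpd17b replicate 5. Ech1, a dienoyl-CoA isomerase, had log2 fold changes of 0.37 and 0.41 under vehicle and Cmpd17b with overlapping groups, and Decr1 had -0.08 and 0.01. Ech1 was called higher under Cmpd17b without BPN/3J Cmpd17b replicate 5.

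The largest rise in BPH/2J among the 45 members was in the peroxisomal group. Acox2 encodes the acyl-CoA oxidase that acts on branched chains and on bile acid intermediates. It has 2 RefSeq starts, and the 250 bases before the more upstream one are chr14:8259020-8259269 on the minus strand in GRCm38.p6, and they hold no AGGTCA on either strand.
Acox2 promoter: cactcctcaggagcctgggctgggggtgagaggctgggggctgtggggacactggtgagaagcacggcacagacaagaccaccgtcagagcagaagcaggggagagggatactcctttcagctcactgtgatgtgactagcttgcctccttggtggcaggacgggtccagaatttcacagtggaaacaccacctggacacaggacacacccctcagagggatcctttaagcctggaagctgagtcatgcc
Acox2 was at 109, 72.7, 72.5, 97.2 and 52.1 CPM in BPH/2J vehicle mice, against 31.8, 29.4, 28.4 and 21.3 CPM in BPN/3J vehicle mice. Under Cmpd17b it was at 91.6, 87.3, 86.7 and 53.1 CPM in BPH/2J mice, against 29.8, 21.8, 26.4, 31.3 and 22.5 CPM in BPN/3J mice. Even the lowest BPH/2J mice, replicate 5 of each group, were well above all BPN/3J mice. The log2 fold change was 1.54 (SE 0.21, edgeR adjusted p 5.98e-05) under vehicle and 1.60 (SE 0.20, edgeR adjusted p 2.25e-05) under Cmpd17b. The other oxidase of the group, Acox3, which takes pristanoyl-CoA, pointed the other way without passing. It was at 356, 268, 239, 206 and 257 CPM in BPH/2J vehicle mice, against 322, 349, 299 and 380.2 CPM in BPN/3J vehicle mice (log2 fold change -0.35, edgeR adjusted p 0.113). Under Cmpd17b Acox3 lay below the BPN/3J range in every BPH/2J mouse, at 306, 302, 266 and 233 CPM against 369.5, 377, 337, 347 and 356 CPM (log2 fold change -0.37, edgeR adjusted p 0.0964). Without BPH/2J vehicle replicate 1, Acox3 was called lower in both arms. DESeq2 called it lower under Cmpd17b.

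Ehhadh, the L-bifunctional enzyme and a classical PPAR alpha target, was at 525, 468, 392, 375 and 409.9 CPM in BPH/2J vehicle mice, against 520.5, 461, 512 and 410.2 CPM in BPN/3J vehicle mice. The groups overlapped, and the log2 fold change was -0.13 (95% interval -0.53 to 0.26, edgeR adjusted p 0.699). Under Cmpd17b it was at 581, 507, 564 and 239 CPM in BPH/2J mice, against 454, 370.5, 407, 415 and 381 CPM in BPN/3J mice. There 3 of the BPH/2J mice lay above all BPN/3J mice and replicate 5 below them, and without that replicate Ehhadh was called higher. Hsd17b4, the D-bifunctional enzyme, and the thiolases Acaa1a and Acaa1b had strain log2 fold changes from -0.27 to 0.39 over both arms, and none passed. Acaa1a and Acaa1b are close paralogs within a few genes of each other, so counting could have split their reads.

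Among the 5 thioesterases, 1 was higher in BPH/2J under vehicle and none passed under Cmpd17b. Acot2, Acot1, Acot4 and Acot3 are close relatives that lie near each other in the RefSeq gene order, the cytosolic, mitochondrial and peroxisomal forms of a type I family, and reads could have been split among them. Acot4, the peroxisomal succinyl-CoA and dicarboxylyl-CoA form, is shown because its window held the longest motif match of any member. The 60 bases before its RefSeq start are chr12:84038319-84038378 on the plus strand in GRCm38.p6. Capitals mark the reverse complement of GGNCA followed by A and AGGTCA. This is a form of the direct repeat that PPAR and RXR bind, shortened by its first base. The full repeat was not matched in this window.
Acot4 promoter: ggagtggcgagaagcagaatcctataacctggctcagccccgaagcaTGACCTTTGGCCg
Acot4 itself did not differ by the test, with strain log2 fold changes of -0.09 under vehicle and 0.00 under Cmpd17b. Acot2, the mitochondrial form, was at 21.2, 17.8, 24.8, 25.2 and 18.9 CPM in BPH/2J vehicle mice, against 13.2, 13.9, 13.7 and 16.5 CPM in BPN/3J vehicle mice. All BPH/2J vehicle mice lay above the BPN/3J mice, with a log2 fold change of 0.59 (SE 0.13, edgeR adjusted p 0.00507). Under Cmpd17b the groups touched, at 19.8, 23.8, 17.9 and 18.97 CPM in BPH/2J mice against 15.9, 14.9, 13.3, 18.1 and 16.2 CPM in BPN/3J mice (log2 fold change 0.36, edgeR adjusted p 0.0838). Acot3 was above the BPN/3J range in every BPH/2J mouse of both arms but did not pass, with log2 fold changes of 0.41 and 0.42 and edgeR adjusted p of 0.0786 and 0.071 under vehicle and Cmpd17b. Without BPN/3J Cmpd17b replicate 4 it was called higher under Cmpd17b, as it was by DESeq2 with that mouse kept. Acot1, the cytosolic form, had the larger differences of 0.68 and 0.72 with overlapping groups and SEs of 0.31 and 0.30, and was called higher under Cmpd17b without BPH/2J Cmpd17b replicate 5. Acot12, which hydrolyses acetyl-CoA in the cytosol, had -0.07 and 0.09.

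Neither the regulator nor the fuel switch passed. Ppara, the nuclear receptor itself, was at 121, 74.3, 57.2, 59.98 and 63.0 CPM in BPH/2J vehicle mice, against 120.03, 110.2, 109 and 79.2 CPM in BPN/3J vehicle mice. BPH/2J replicate 1 stood above all other mice of both groups, while the other BPH/2J mice lay below the BPN/3J range, and the log2 fold change was -0.48 (SE 0.28, edgeR adjusted p 0.307). Among treated mice it was at 124, 85.8, 109.6 and 44.3 CPM in BPH/2J, against 139, 112, 98.8, 122 and 62.2 CPM in BPN/3J, with overlap and a log2 fold change of -0.23 (edgeR adjusted p 0.642). Pdk4, the kinase that shuts pyruvate dehydrogenase when fat is burned, was at 11.3, 10.4, 5.597, 13.8 and 3.55 CPM in BPH/2J vehicle mice, against 7.80, 8.32, 7.83 and 5.30 CPM in BPN/3J vehicle mice. The BPH/2J mice spanned the whole BPN/3J range and more, the highest being replicate 4, the mouse with the high fat cell markers, with a log2 fold change of 0.30 (SE 0.41, edgeR adjusted p 0.692). Among treated mice it was at 14.5, 13.7, 9.27 and 4.96 CPM in BPH/2J, against 21.3, 8.08, 5.92, 14.04 and 6.25 CPM in BPN/3J, also with overlap (log2 fold change -0.06, edgeR adjusted p 0.944).

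**Figure D3:**
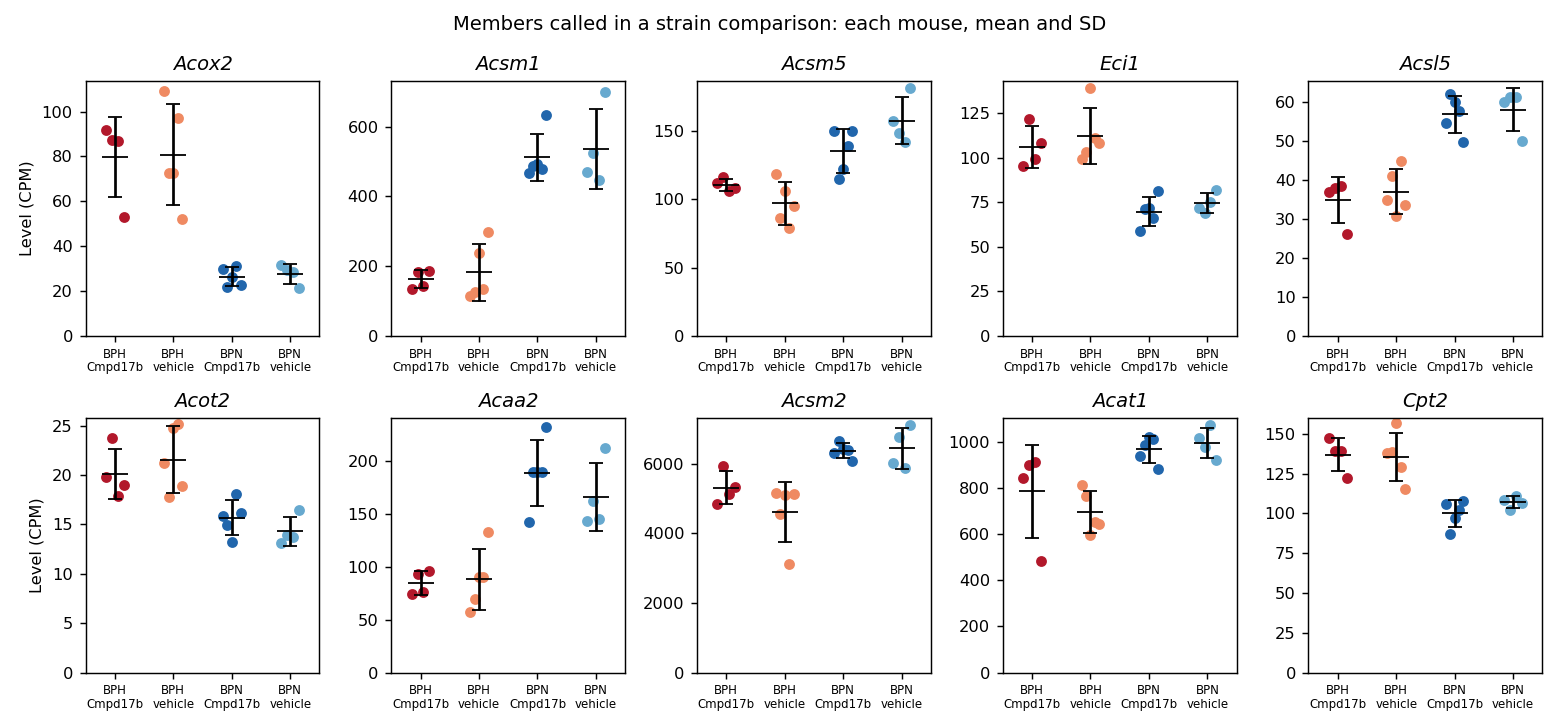
Level in CPM of the 10 members that passed the test between strains under vehicle, in every mouse (points) with group mean and SD (bars), for BPH/2J and BPN/3J mice given Cmpd17b or vehicle. Acox2, Eci1, Acot2 and Cpt2 are higher in the BPH/2J groups and Acsm1, Acsm5, Acsl5, Acaa2, Acsm2 and Acat1 lower, with little separation between Cmpd17b and vehicle within a strain.

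The 6 members called under Cmpd17b were all called under vehicle in the same direction, which is 100% of the Cmpd17b calls and 60% of the vehicle calls. Of all tested genes, 10.8% were called under vehicle, 10.4% under Cmpd17b and 6.75% in both arms, in either direction. Of the 45 members those counts were 10, 6 and 6. The 100% and 60% are shares of calls, so they cannot be set against the 6.75%, a share of all tested genes. The arms share no mouse but share the estimate of spread of 1 fit. Acsm5, Acsm2, Acat1 and Acot2 were called under vehicle but not under Cmpd17b. For none of them was the change in strain difference itself called: the edgeR adjusted p of the interaction was 0.99991 for each. The largest of these interactions was for Acsm5, at 0.41 on the log2 scale (95% interval 0.05 to 0.77, unadjusted edgeR p 0.0276).

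None of the 45 members passed edgeR's test for Cmpd17b against vehicle in BPH/2J, where 0.164% of all tested genes passed. Those were 27 genes, all higher with Cmpd17b, and 10 of them were among the 12 heart muscle markers. DESeq2 and limma-voom called none of the members either, and 0 of 45 reached an unadjusted edgeR p below 0.05, as 608 of 16421 genes did. The log2 fold change of Cmpd17b over vehicle ran from -0.16 for Acsm1 to 0.28 for Ppara. It was above 0 for 33 members and below 0 for 12, against 7924 and 8495 of all tested genes. Of the 14 proximal tubule markers, 13 were above 0 and 1 below, with a median of 0.15 against 0.07 over the members. Of the 88 other genes of fatty acid handling described below, 47 were above 0 and 41 below. The part of proximal tubule RNA in these values was not tested. The members with the smallest p were Acsm5, Acsm2 and Acads, and each overlapped between the groups. Acsm5 was at 112, 116, 106 and 108 CPM in BPH/2J Cmpd17b mice, against 118, 86.0, 106, 79.1 and 94.8 CPM in BPH/2J vehicle mice, a log2 fold change of 0.19 (95% interval -0.06 to 0.44). Acsm2 had 0.20 (95% interval -0.08 to 0.48). Acads was at 214, 229, 215 and 216 CPM in BPH/2J Cmpd17b mice, against 208, 206, 202, 181 and 220.3 CPM in BPH/2J vehicle mice, a log2 fold change of 0.10 (95% interval -0.08 to 0.28). No member had groups that did not overlap, against 0.932% of all tested genes. The 95% interval lay within 1 log2 unit of 0 for 44 members and within 0.5 for 31, and the widest reached 1.10 for Pdk4 and -0.69 for Etfb. The heart muscle transcripts listed above were higher in each of the BPH/2J Cmpd17b mice than in any BPH/2J vehicle mouse, and their part in these values was not tested.

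In BPN/3J, again no member passed for Cmpd17b against vehicle, and 0% of all tested genes passed by edgeR. DESeq2 called 0 members, with 4 genes higher and 2 lower over all genes, and limma-voom called 0 genes. At an unadjusted edgeR p below 0.05 there were 1 member and 415 genes. That member was Eci2, the isomerase found in peroxisomes and mitochondria. It was at 86.8, 86.9, 91.1, 92.4 and 92.2 CPM in BPN/3J Cmpd17b mice, against 103, 98.7, 106 and 108 CPM in BPN/3J vehicle mice. It was the only member whose groups did not overlap, against 1.78% of all tested genes (0.755% with the treated group lower), and its log2 fold change was -0.21 (SE 0.09, unadjusted p 0.0373, edgeR adjusted p 1). Acsl1, a long-chain synthetase, was at 135, 94.1, 81.0, 92.8 and 63.4 CPM in BPN/3J Cmpd17b mice, against 69.8, 81.0, 73.4 and 48.6 CPM in BPN/3J vehicle mice. Replicate 1 of the treated mice stood highest, and the log2 fold change was 0.45 (95% interval -0.03 to 0.93). Acsm5 had -0.22 (95% interval -0.47 to 0.03). Over the members the range was -0.32 for Crot to 0.60 for Pdk4, and Pdk4 was at 21.3, 8.08, 5.92, 14.04 and 6.25 CPM in BPN/3J Cmpd17b mice, against 7.80, 8.32, 7.83 and 5.30 CPM in BPN/3J vehicle mice. The same treated replicate 1 that was high in Acsl1 was the highest in Pdk4, and it also had the highest summed level of 10 fat cell markers of its group, at 283.5 CPM against 29.4 to 62.7 CPM in the other 4 mice. The part of fat cell RNA in those values was not tested. Over the members the log2 fold change was above 0 for 16 and below 0 for 29, against 8031 and 8382 of all tested genes. Of the 14 proximal tubule markers, 11 were above 0 and 3 below. The 95% interval lay within 1 log2 unit of 0 for 44 members and within 0.5 for 29.

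**Figure D4:**
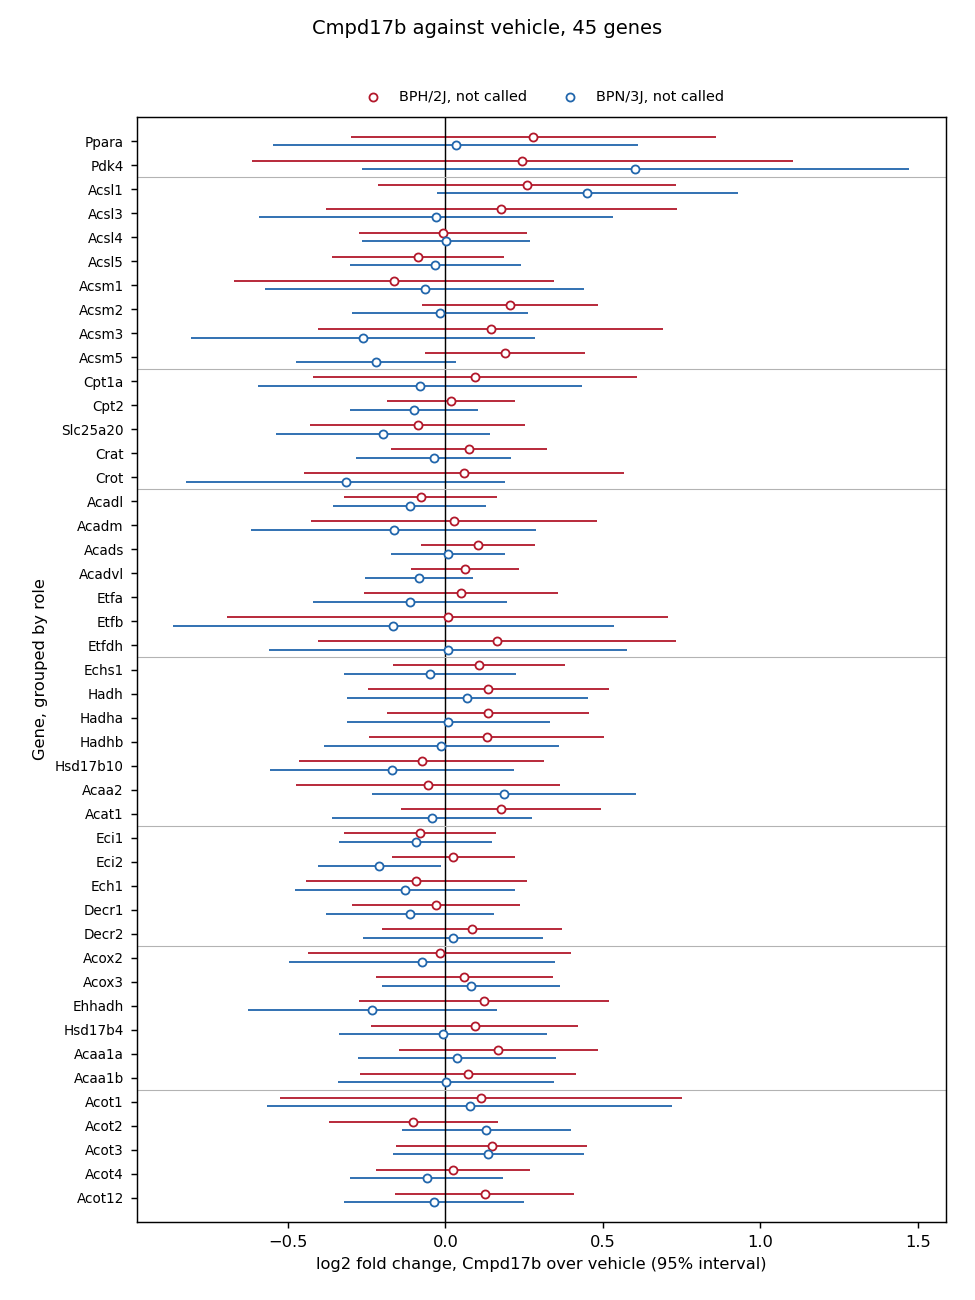
Log2 fold change of Cmpd17b over vehicle for each of the 45 genes, with 95% intervals, in BPH/2J (red) and BPN/3J (blue) mice; open points did not pass the test. No member passed in either strain, and Pdk4 has the widest intervals, up to 1.10 in BPH/2J and 1.47 in BPN/3J.

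The interaction test, which compares the effect of Cmpd17b between the strains, was passed by no member, where 0.0304% of all tested genes passed. Those were 5 genes, all 5 of them among the 12 heart muscle markers. The interaction was above 0 for 37 members and below 0 for 8, against 8244 and 8177 of all tested genes. Of the 88 other genes of fatty acid handling described below, 62 were above 0 and 26 below. Proximal tubule markers were above 0 for 11 and below for 3, and collecting duct markers for 7 and 2. All 6 podocyte markers and all 8 stroma and endothelium markers were below 0. The part of cell types in these counts was not tested. At an unadjusted edgeR p below 0.05 there were 1 member, Acsm5, and 529 genes.

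Of 92 other genes of fatty acid handling in the table, 88 were tested. Under vehicle 6 were higher and 6 lower in BPH/2J, and under Cmpd17b 5 were higher and 6 lower, beside 10.8% and 10.4% of all tested genes called in those arms. Plin2, the coat protein of lipid droplets and a PPAR target, had the smallest p among them. It averaged 18.4 ± 6.56 CPM in BPH/2J and 66.7 ± 4.82 CPM in BPN/3J vehicle mice (SD, n = 5 and 4), a log2 fold change of -1.86 (SE 0.19, edgeR adjusted p 2.07e-06), and had -2.25 under Cmpd17b (SE 0.20, edgeR adjusted p 3.03e-07). Nudt19, a peroxisomal enzyme that cleaves CoA, averaged 822 ± 134 CPM in BPH/2J and 347 ± 81.9 CPM in BPN/3J vehicle mice, a log2 fold change of 1.25 (SE 0.21, edgeR adjusted p 0.000587). It had 1.57 under Cmpd17b (SE 0.21, edgeR adjusted p 3.53e-05), and its relative Nudt7 was called higher under vehicle, at 0.50. Echdc1, which removes ethylmalonyl-CoA, and Echdc3 were higher in both arms, with log2 fold changes of 0.78 and 0.56 under vehicle and of 0.94 and 0.63 under Cmpd17b. Ivd, the leucine-pathway dehydrogenase, was lower in both arms, with log2 fold changes of -0.58 under vehicle and -0.46 under Cmpd17b. Acss3, an acyl-CoA synthetase for short chains, and the nuclear receptor Esrra were also lower in both arms. Cyp4a14, a PPAR alpha target, was at low level and higher in both arms. It averaged 6.52 ± 4.24 CPM in BPH/2J and 1.70 ± 0.679 CPM in BPN/3J vehicle mice, with overlapping groups. Angptl4, a secreted lipase inhibitor, passed as higher and Bdh1, a ketone body dehydrogenase, as lower in the vehicle arm, with log2 fold changes of 1.02 and -0.44. In the Cmpd17b arm Acat2, a cytosolic thiolase, passed as higher and the nuclear receptor Pparg as lower, with 0.53 and -2.10. Pparg was at low level there, at 1.14, 1.06, 1.01 and 0.288 CPM in BPH/2J mice, against 5.23, 3.29, 3.85, 3.32 and 3.53 CPM in BPN/3J mice. Under vehicle it was at 1.09, 1.44, 0.485, 4.27 and 1.34 CPM in BPH/2J mice, against 4.13, 3.52, 4.86 and 3.75 CPM in BPN/3J mice. Only BPH/2J vehicle replicate 4, the mouse with the high fat cell markers, reached into the BPN/3J range. The interaction was called for none of the 88 genes, and for Angptl4, Bdh1, Acat2 and Pparg its edgeR adjusted p was 0.99991. Several of the calls were lost when 1 mouse was left out: Nudt7, Bdh1, Angptl4 and Esrra each lost theirs under vehicle without BPN/3J vehicle replicate 1 or 3. Nudt7, Angptl4 and Esrra also did so without BPN/3J vehicle replicate 2, Nudt7, Bdh1 and Esrra without BPH/2J vehicle replicate 4, Nudt7 and Bdh1 without BPH/2J vehicle replicate 3, Bdh1 without BPH/2J vehicle replicate 5, and Esrra without BPH/2J vehicle replicate 1 or 2. Under Cmpd17b, Acss3 lost its call without any 1 of BPH/2J Cmpd17b replicates 3, 4 and 5 and BPN/3J Cmpd17b replicates 1 to 4, and Esrra without BPH/2J Cmpd17b replicate 4 or BPN/3J Cmpd17b replicate 2.

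RefSeq promoter windows, 250 bases before a start in GRCm38.p6, were used for 40 of the 45 members, 44 windows in all. None was used for Crat, Acaa2, Acat1, Decr1 and Hsd17b4. Windows of members on 1 chromosome were left out, though not those of all genes, so these members need not lack a window. AGGTCA on either strand occurred in 15.9% of the members' windows, those of Acadm, Acadvl, Acot12, Acot4, Acsm1, Cpt1a and Echs1, against 14% of 32851 windows of all genes. The direct repeat to which PPAR and RXR bind, AGGNCA followed by any base and AGGNCA again, occurred in 0 of the 44 and in 0.338% of all windows. A stricter form, AGGNCA followed by A and AGGTCA, also occurred in 0 of the 44 and in 0.0274% of all windows. That form without its first base, GGNCA followed by A and AGGTCA, overlaps the other patterns. It occurred in 1 window, in Acot4 13 bases before its start, and in 0.0548% of all windows. Of the 10 members called under vehicle, Acsm1 alone held AGGTCA among those with a window. A match is a run of letters and not a bound site, and its absence says only that these letters are not in this window.

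In BPH/2J Cmpd17b replicate 5, 32 of the 45 members lay below the median of the other mice of its group, with a median log2 difference of -0.53. The shift differed with transcript length, at -0.84 for the 22 members with transcripts above 2099 bases and -0.04 for the 23 others. Across all genes of that library the longest transcripts were also lower (median log2 difference -0.21) and the shortest higher (0.21) than in its group. Other mice with low long members were BPH/2J vehicle replicates 3 and 5, at -0.27 and -0.26, BPN/3J Cmpd17b replicate 5, at -0.19, and BPN/3J vehicle replicate 4, at -0.30. BPH/2J vehicle replicates 1 and 2 were high, at 0.34 and 0.22. With this length difference as a covariate, a setting chosen after seeing the data, the members called higher numbered 7 in each arm and the members called lower 6 under vehicle and 3 under Cmpd17b, with all calls made without it kept. Acot1 and Acot3 were gained in both arms.

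**Figure D5:**
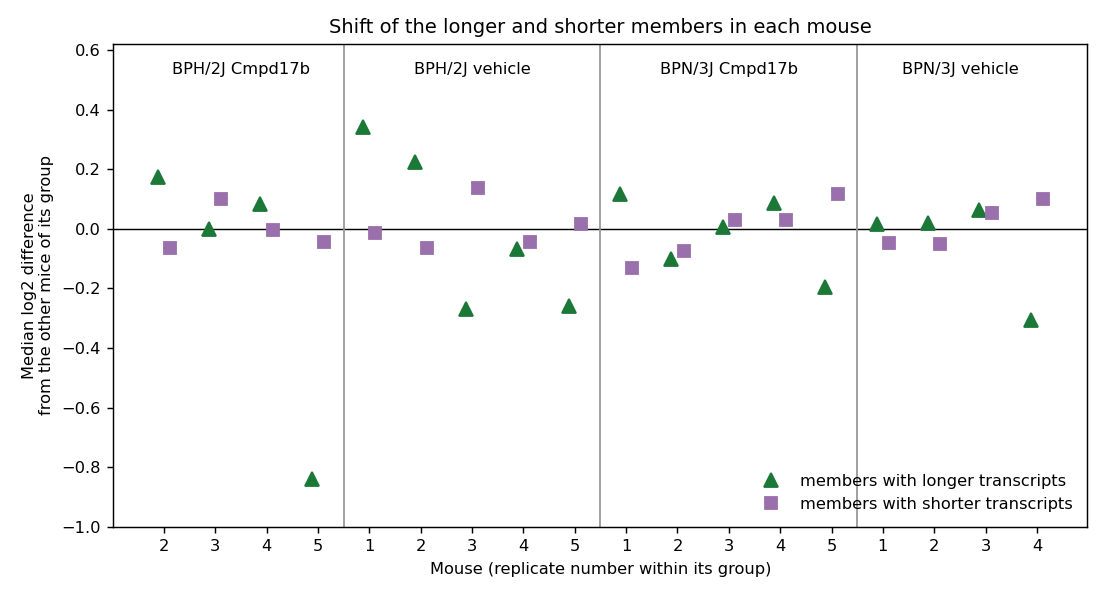
Median log2 difference of each mouse from the other mice of its group, for the 22 members with longer transcripts (triangles) and the 23 with shorter ones (squares), by mouse within each of the 4 groups. BPH/2J Cmpd17b replicate 5 lies at -0.84 for the longer members and -0.04 for the shorter ones.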

How the data were processed

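Polyadenylated kidney RNA was sequenced as paired reads, and the authors deposited 1 table of estimated counts (expected counts) per gene, in which 4.63% to 10.1% of a library's values were not whole. The submitters' processing notes name Trim Galore 0.6.7, STAR 2.7.9a and the genome build mm39 (GRCm39), and how counts were assigned to genes is not given in the sources used here. Samples were grouped by strain and treatment from the labels, and replicates are separate mice. All libraries carry batch label 2, so no batch within the study could be separated. Extraction dates are not given.

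The deposited counts were rounded and tested with edgeR 4.0.16 under R 4.3.3 (TMM scaling, filterByExpr with a minimum count of 10 and total of 15, robust quasi-likelihood F-test, all groups in 1 fit), with Benjamini-Hochberg adjustment over 16421 genes and a threshold of 0.05. BPH/2J Cmpd17b replicate 1 was left out, and 18 of 19 libraries were fitted. Levels are TMM-scaled CPM, except for the left-out library, whose CPM are unscaled, and folds are log2. Transcript lengths are medians over protein-coding transcripts of GENCODE M21, an earlier build, and gene order and promoters are from RefSeq GRCm38.p6; they were used for lengths, order and sequence only. Deviations of a mouse from its group used log2(CPM + 0.5). Members and lists were chosen with earlier results of these data known. Named were all called members, the 3 with the smallest p where fewer were called, 8 fixed members and up to 4 called genes of each other list by comparison; further members were described after their values had been seen. From the other lists, 1 such gene is not reported here. The tests were checked on simulated counts. Those had the same spread for every gene and no shift of a library, so the check does not cover the shifts described above. Alternatives were DESeq2 1.42.0, limma-voom 3.58.1, DESeq2 size factors, no filter, 1 CPM in 4 libraries, only the compared groups, all 19 libraries, a fit that was not robust, 1 surrogate variable (sva 3.50.0), each library left out, and, added after seeing the data, a length covariate. Plots used matplotlib 3.10.9 (Python 3.11.15).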

Additional observations from a re-analysis of the deposited data

Results flagged for a closer look

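Among 80 group-by-gene sets of mice, 9 held a mouse far from the others of its group by Dixon's test, which chance alone flags in about 1 in 20 groups. The sets reuse the same mice, so they are not independent. In BPH/2J Cmpd17b replicate 5, Acox2 was at 53.1 CPM (nearest mouse 86.7), Acsl5 at 26.1 CPM (nearest 37.0) and Acat1 at 485 CPM (nearest 846). Long members were low in this mouse and less strongly in BPH/2J vehicle replicate 3, BPN/3J Cmpd17b replicate 5 and BPN/3J vehicle replicate 4. In BPH/2J vehicle replicate 1 they were high. In BPH/2J Cmpd17b replicate 3, Acads was at 229 CPM (nearest 216). In BPH/2J vehicle replicate 1, Ppara was at 121 CPM (nearest 74.3), and in BPH/2J vehicle replicate 3, Hadha was at 95.9 CPM (nearest 137). In BPN/3J Cmpd17b replicate 5, Acsm1 was at 632 CPM (nearest 493). In BPN/3J vehicle replicate 4, Acsl5 was at 50.0 CPM (nearest 59.96) and Hadha at 113 CPM (nearest 148). In the library labelled BPH/2J Cmpd17b replicate 1, which entered no comparison, 18 of the 45 members were above all 18 other libraries.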

How the results depend on the processing

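All 28 alternatives kept the strain calls of Acsl5 in both arms and of Eci1 and Cpt2 under Cmpd17b. Acox2, Acsm1 and Acaa2 in both arms, and Acsm5, Eci1 and Acot2 under vehicle, were lost only with all 19 libraries. Acsm2 was lost in 4, 2 of them without BPN/3J vehicle replicate 2 or 4, Acat1 in 8 and Cpt2 under vehicle in 10. With all 19 libraries the members called were 0 higher and 1 lower under vehicle and 3 higher and 1 lower under Cmpd17b, the genes called under vehicle were 317 higher and 249 lower, against 955 and 811 without that library, and under Cmpd17b Acaa2 turned to 0.33 (edgeR adjusted p 0.757) and Pdk4 to 3.88 (edgeR adjusted p 0.0422). Members called higher were 8 under vehicle and 10 under Cmpd17b with 1 surrogate variable, 7 and 7 with the length covariate, and 5 under Cmpd17b with DESeq2. Leaving out 1 library gave 3 to 4 higher and 4 to 8 lower under vehicle, and 3 to 7 higher and 3 to 4 lower under Cmpd17b; the 7 came without BPH/2J Cmpd17b replicate 5, as did the 8. It gave 0 in each direction for both Cmpd17b effects and the interaction. The cause was not tested. For the genes named by the rule, of 1530 fold changes with a library left out, 1485 kept their side of the threshold, 43 lost it and 2 gained it; of 840 under other settings 800 kept it, 36 lost it, 2 gained it and 2 reversed. Among those that kept it, 25 and 27 changed sign without a call in either fit. Members outside the rule that gained a call without 1 library are given beside each gene. The SE of the strain difference was largest for Pdk4, a low-level member, at 0.41 in each arm. Etfb, at a higher level, followed with 0.34 under vehicle and 0.33 under Cmpd17b. Acot3, also at a low level, had 0.15 and 0.14. The part of counting error in these SEs was not tested. No paired analysis was possible because the animal numbers in the labels are not shared between groups and replicate numbers only name mice.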
